A study of Mus musculus with 4 samples.

Results

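The genes described here are 47 components of the DNA replication machinery of primary mouse T cells, out of 50600 annotated genes counted in each library. They were chosen by name and not by a rule on measured values, though with earlier results of these data known. Their identifiers pair with the symbols of the origin recognition complex, the MCM helicase and its loaders, the GINS complex and the replicative polymerases. Others pair with those of the sliding clamp and its loader, the single-strand binding protein and the enzymes that supply deoxynucleotides. All 47 identifiers were found once each in the tables.

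RNA of T cells of the inbred mouse strain C57BL/6NJ was sequenced in 4 libraries, given in the labels as biological replicates, numbered 1 to 4, of a single group. The labels give no treatment, genotype change, sex, age or time, and they attach a CD4+ T-cell differentiation protocol to every library. Only the alignment names in the file headers tell more: each contains Th0, activated and 24 h, where Th0 is the usual name of helper T cells activated without polarising cytokines. No control or resting cells belong to the group, so every value below is a level in these cells and none is a response to activation. The donor entry is the same for all 4 and no label names separate animals, so that spreads and p-values measure only the differences between these samples, which may be technical.

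Before a cell divides, the origin recognition complex (ORC), CDC6 and CDT1 load the ring-shaped MCM2-7 helicase onto DNA, a step that geminin blocks by binding CDT1. At the start of S phase CDC45 and GINS join the ring to form the active helicase, after which polymerase alpha-primase starts each strand, polymerases epsilon and delta extend it on the PCNA clamp, RPA covers single-stranded DNA and FEN1 trims the ends of lagging-strand fragments. Resting T cells transcribe many of these genes weakly and activated T cells raise them as they enter the cell cycle. In RNA of a whole culture, fewer cells in S phase and less RNA per cell cannot be told apart.

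Levels are given as TPM, in which a gene's fragments are divided by the length of its exons and every library is scaled to the same total. Gene-assigned fragments summed to between 47558517 and 60102919 in 3 libraries and to 273136467 in replicate 2, and each replication gene had between 822 and 246111 fragments in a library. Replicate 1 stood apart in base composition: across 12692 genes the Spearman correlation of its deviations with the GC content of the mRNA was -0.345, against 0.0836 to 0.201 in the other libraries. Each deviation is from the mean of the 4 libraries, so these values are not independent. The T-cell label was checked against markers, and those of helper T cells were abundant, with Cd4 at 697 ± 37.9 TPM (SD, n = 4), Cd3e at 226 ± 15.7 and Cd8a at 0.839 ± 0.0254. All 7 T-cell and all 3 helper markers reached 10 TPM in every library, whereas Cd8b1 was also present at 46.7 ± 3.55. The summed TPM of 4 B-cell markers (Ms4a1, Cd79a, Pax5 and Cd22) was between 1.66 and 3.42, and that of 6 myeloid markers between 0.355 and 1.16 with Lyz2 at 0 in replicates 3 and 4. Of the 3 natural killer cell markers all were below 1 TPM, with Ncr1 at 0 in replicates 1 and 3. The part of the B-cell signal in the replication genes' levels was not tested.

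Each of the 47 replication genes reached 1 TPM in every library, as 22.7% of all annotated genes did. At 10 TPM or more in every library were 46 of the 47, against 16.0% of all genes, and 26 were at 100 TPM or more, against 3.98%. The exception at 10 TPM was Rrm2b, which encodes the p53-inducible small subunit of ribonucleotide reductase and had levels of 11.5, 9.54, 9.51 and 9.10 TPM in replicates 1 to 4. The median level of the 47 was 120 ± 5.60 TPM, while over the 11483 genes that reached 1 TPM in every library the median was 28.7. Together they made up 0.999% ± 0.0126 of all TPM. Their means ran from 9.91 TPM for Rrm2b to 859 TPM for Pcna.

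**Figure D1:**
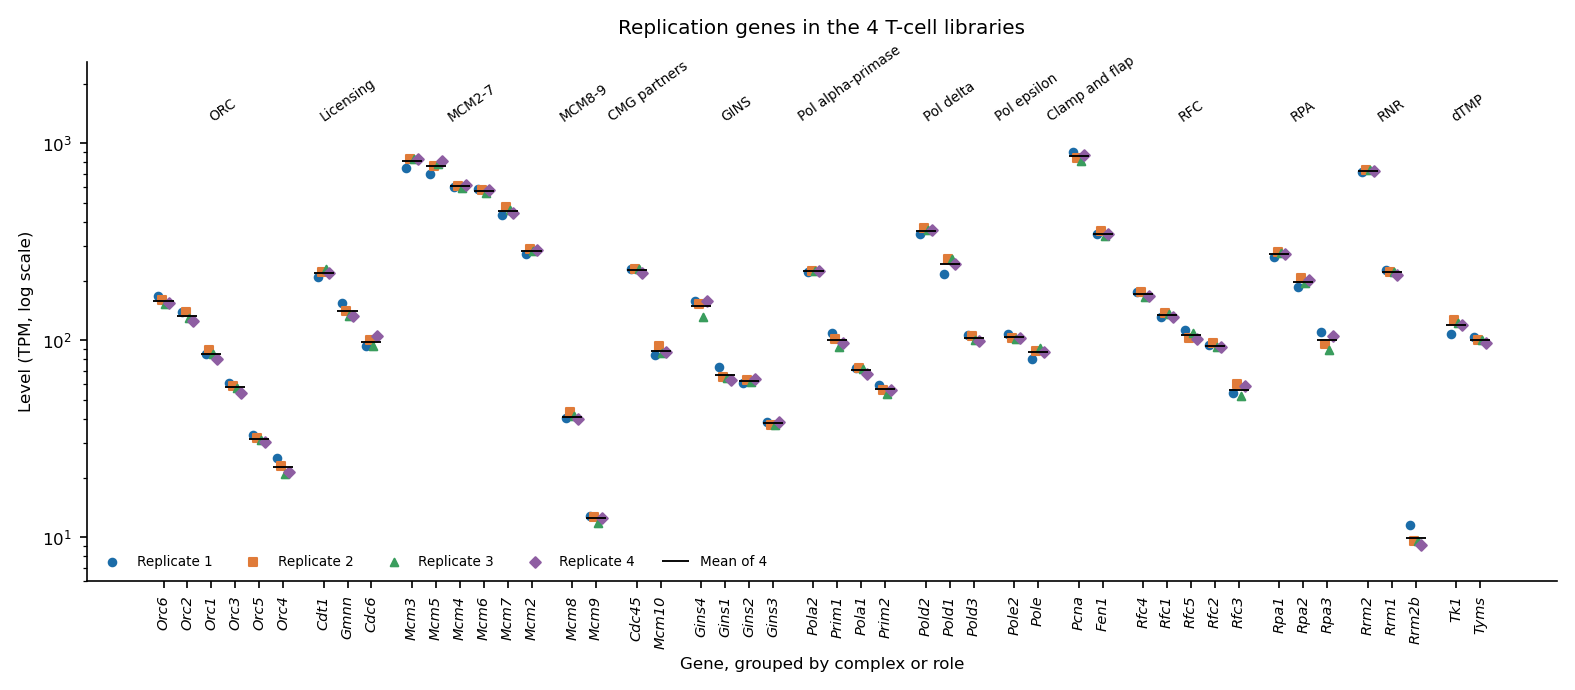
Level of each replication gene (TPM, logarithmic axis) in each of the 4 libraries, grouped by complex or role and ordered by mean within a group; points are libraries and lines are means of 4. The MCM2-7 subunits, Pcna and Rrm2 lie highest, Mcm9 and Rrm2b lowest, and the 4 libraries of a gene lie close together beside the distances between genes.

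Of the origin-binding subunits, Orc6 and Orc2 were transcribed at the highest level and Orc4 at the lowest. Orc6, a small subunit with similarity to TFIIB, had 168, 159, 153 and 154 TPM in replicates 1 to 4 (159 ± 7.08, SD, n = 4). Orc2 was at 138, 138, 129 and 126 TPM, and Orc1, an AAA+ ATPase of the complex, was at 84.9, 89.3, 85.4 and 80.6. Neither gene's range reached that of Orc6 or of the other. Orc3 had 60.7, 58.7, 57.3 and 54.0 TPM, Orc5 had 33.1, 32.0, 31.3 and 30.3, and Orc4 had 25.2, 23.1, 20.9 and 21.5. The ranges of no neighbours in this order overlapped, and the order Orc6, Orc2, Orc1, Orc3, Orc5, Orc4 was the same in each library. The highest subunit stood 7.01 ± 0.277 times above the lowest, so the RNA of this complex was far from equimolar.

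These orders depend on what is taken as the length of a gene. The deposited exon length merges the exons of every annotated isoform, and for the 47 genes it was between 0.994 times (Pole2) and 3.61 times (Tk1) the length of the principal mRNA, with a median of 1.43 times. Orc3 has 6088 bases of merged exons and a principal mRNA of 2300 bases, and Orc5 has 6166 and 2103. Per base of principal mRNA, Orc3 moved from the fourth place to the second at 106 ± 5.20 TPM, and Orc5 was at 64.2 ± 2.42, overlapping the range of Orc1 at 67.9 ± 2.84. Orc6 stayed highest at 211 ± 9.31 and Orc4 lowest at 28.8 ± 2.42, and the ratio between them was 7.33 ± 0.290. With either length the fragments are those of all merged exons, so fragments outside the principal mRNA stay in the values by mRNA length. Those values are therefore an alternative scale and not corrected abundances. For a member whose position depends on the length, both values are given below.

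The loading factors were ordered Cdt1, Gmnn, Cdc6 by exon length. Cdt1, which brings the helicase ring to the origin, was at 210, 223, 229 and 219 TPM. Gmnn encodes geminin, the inhibitor of CDT1, and was at 154, 141, 133 and 133. Cdt1 was above Gmnn in 4 of 4 libraries, by 1.58 ± 0.155 times with exon lengths and 1.74 ± 0.171 times with mRNA lengths. Cdc6, the ATPase that joins ORC for loading, was at 93.8, 101, 93.4 and 105 TPM, below Gmnn in every library by exon length. With mRNA lengths Cdc6 was at 139 ± 7.57 and Gmnn at 126 ± 8.81, and their order turned in the means, so these libraries do not fix which of the 2 transcripts was more abundant.

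The 6 subunits of the MCM2-7 helicase were among the most abundant replication transcripts, between 275 and 834 TPM in every library. Mcm3 (mm10 chr1:20802968-20820312, minus strand) was at 748, 829, 834 and 833 TPM, with replicate 1 apart from the other 3. Mcm5 was at 696, 766, 781 and 811 TPM, below Mcm3 in each library although their ranges overlapped. Mcm4 was at 598, 608, 595 and 614 TPM and Mcm6 at 583, 580, 559 and 579, which were close but did not overlap. Mcm7 followed with 434, 477, 458 and 442 TPM. Mcm2 (mm10 chr6:88883474-88898780, minus strand), whose product carries a histone-binding tail, was lowest by exon length with 275, 290, 285 and 286.

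In the assembled ring each of the 6 proteins is present once. By exon length the highest of their transcripts stood 2.85 ± 0.0937 times above the lowest, and Mcm2 made up 8.14% ± 0.0929 of the summed TPM of the 6 where an equal share would be 16.7%. By mRNA length the ratio narrowed to 1.72 ± 0.0479 and the share of Mcm2 was 12.5% ± 0.113, with Mcm2 at 406 ± 9.27 TPM beside Mcm4 at 418 ± 5.77. The coefficient of variation between the 6 subunits was 33.7% ± 1.82 by exon length and 23.3% ± 1.15 by mRNA length. By their means Mcm3 was highest and Mcm2 lowest with both lengths, although per mRNA Mcm6 was above Mcm3 in replicate 1 and the range of Mcm2 overlapped that of Mcm4. The 4 subunits between them changed places. Per mRNA Mcm6, at 638 ± 11.5, and Mcm7, at 468 ± 19.7, were both above Mcm4 in every library, whereas Mcm6 and Mcm5 (624 ± 40.0) overlapped, with Mcm6 the higher in 2 of 4 libraries.

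**Figure D2:**
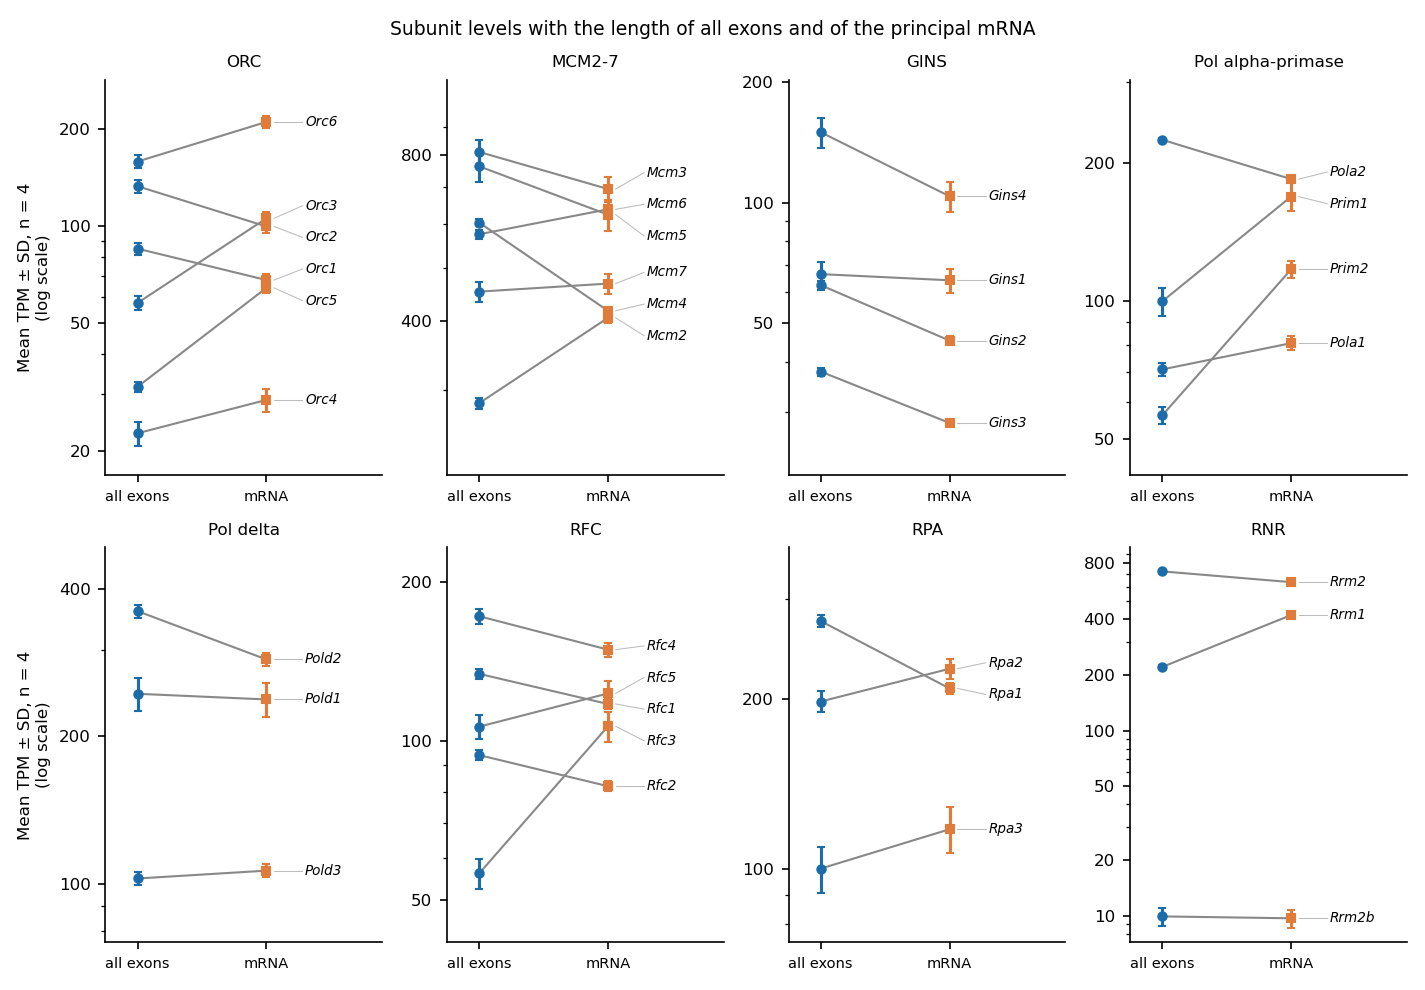
Mean level of each subunit (TPM, logarithmic axes) of 8 complexes, computed with the length of all annotated exons (left of each panel) and with the length of the principal mRNA (right); points are means, bars SD over 4 libraries, and lines join the values of a gene. Crossing lines mark subunits that change order, as Mcm4 and Mcm6 or Rpa1 and Rpa2 do, while Orc6, Gins4, Pold2 and Rrm2 stay highest in their complexes.

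The related helicase pair MCM8-9, which works in homologous recombination, was much less abundant. Mcm8 was at 40.1, 43.0, 41.0 and 39.7 TPM and Mcm9 at 12.8, 12.7, 11.9 and 12.5. Mcm8 was thus 3.29 ± 0.159 times as abundant as Mcm9 by exon length and 2.05 ± 0.0993 times by mRNA length, with no overlap of ranges in either. The median subunit of MCM2-7 was 22.1 ± 0.673 times the mean of this pair by exon length and 22.0 ± 0.923 times by mRNA length. Against the ORC median the MCM2-7 median was 8.27 ± 0.397 times as high (6.47 ± 0.422 by mRNA length).

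Several MCM2-7 promoters also hold a sequence feature that the choice of genes did not use. Words bound by E2F factors, which control genes of the G1 to S transition, were searched on both strands of RefSeq promoter windows (GRCm38.p6) that run from 250 bases before each annotated start to 50 bases after it. The 4 words were TTTGGCGC, TTTCCCGC, TTTCGCGC and TTTGCCGC, which may overlap one another. Windows were present for 38 of the 47 genes, among them 5 of the 6 MCM2-7 genes, of which Mcm3, Mcm5, Mcm6 and Mcm7 held a word and Mcm2 did not. The stretches of mm10 below show the words in capitals, in the direction of transcription, for the 4 genes with a word that lay, with 20 bases on each side, before the start and outside any annotated exon. These 4 genes were picked for holding a word, so its presence in all 4 follows from the choice. In Mcm5 (chr8:75109340-75109387, plus strand) and in the first Mcm6 stretch (chr1:128359784-128359831, minus strand) 2 words on opposite strands overlap, and the second Mcm6 stretch is at chr1:128359725-128359772. The Cdc6 stretch is at chr11:98907993-98908040 on the plus strand, within the counted gene, whose first base is at 98907801. The Pola1 stretch is at chrX:93632266-93632313 on the minus strand. Of the 44 windows of replication genes, 38 ended in bases found in an annotated transcript of the same gene. The Mcm5 window, which runs to 75109558, ends before the counted gene, whose first base is at 75109569. On the minus strand the Mcm6 window runs to 128359656, and the counted gene begins at 128359664. The RefSeq starts used for Mcm5 and Mcm6 thus lie before the counted genes.
Mcm5: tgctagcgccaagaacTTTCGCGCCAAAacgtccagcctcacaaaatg
Mcm6, first: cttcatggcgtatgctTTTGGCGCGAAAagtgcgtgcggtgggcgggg
Mcm6, second: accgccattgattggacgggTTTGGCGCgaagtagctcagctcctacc
Cdc6: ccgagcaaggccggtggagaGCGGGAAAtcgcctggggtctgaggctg
Pola1: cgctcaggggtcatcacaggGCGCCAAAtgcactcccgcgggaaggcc

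Over all 38 genes with a window, 15 held an E2F word, or 39.5%, while 5.00% of 9211 genes tested for variation and 2.60% of 27025 genes with a window did. Besides those named, the 15 were Mcm8, Orc1, Orc3, Cdt1, Gins3, Pold1, Pold3, Pole2 and Rfc3. None of the 3 RPA genes, the 2 ribonucleotide reductase genes with a window, Pcna, Fen1, Cdc45 or Mcm10 held one of these 4 words, which says only that these letters are not in these windows. Of the 21 words found, 12 began before the annotated start, at up to 165 bases, and 9 began at or after it. Within the 100 bases before the start lay 5 of the 21 (23.8%), against 38.7% of the 781 words found over all windows of the table. Genes with a word were not the more abundant ones, with a median of 103 TPM against 159 TPM for the 23 without (107 against 169 by mRNA length). The NF-Y word CCAAT was in windows of 25 of the 38 genes (65.8%, against 43.4% of tested genes) and the E-box CACGTG in those of 7 (18.4% against 12.2%). The cell cycle homology word TTTGAA was in windows of 5 genes (13.2% against 14.0%) and the NRF1 motif in those of 0 (against 2.52%).

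**Figure D3:**
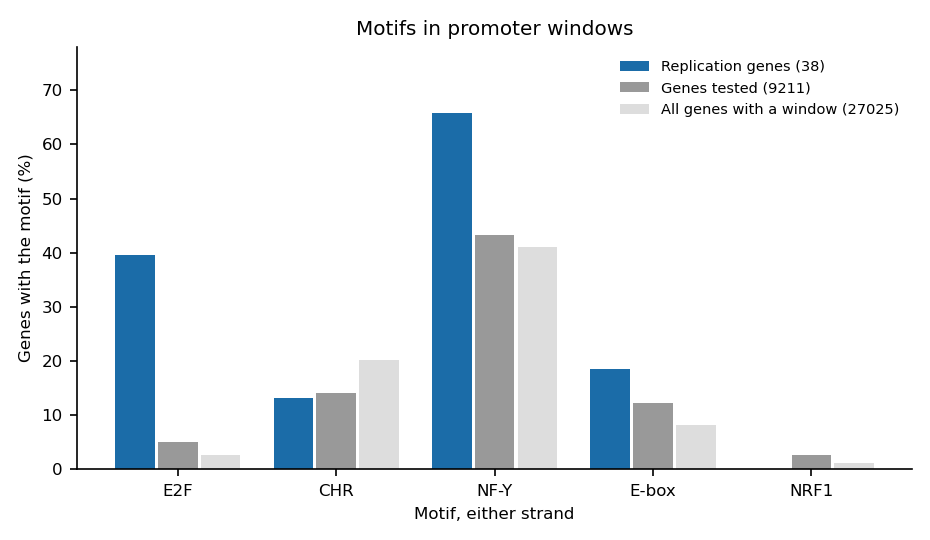
Share of genes (%) whose RefSeq promoter window holds each motif on either strand, for 38 replication genes, 9211 genes tested for variation and 27025 genes with a window. The E2F bar of the replication genes stands at 39.5% against 5.00% and 2.60%, and the NF-Y bar at 65.8% against 43.4% and 41.1%, whereas the bar of the cell cycle homology word (CHR) lies below both others.

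The partners that turn the loaded ring into an active helicase were less abundant than the ring itself. Cdc45 was at 230, 230, 230 and 219 TPM, with replicate 4 below the other 3. Mcm10, which takes part in activating the helicase, was at 84.5, 93.6, 86.4 and 87.3, and Cdc45 was 2.59 ± 0.123 times as high (1.72 ± 0.0817 by mRNA length). Of the 4 GINS subunits, Gins4 was at 158, 152, 131 and 159 TPM, lowest in replicate 3. Gins1 was at 73.1, 65.2, 64.1 and 62.8 TPM, Gins2 at 60.4, 63.1, 61.5 and 63.9, and Gins3 at 38.7, 37.0, 37.2 and 38.6. Gins4 stood 3.96 ± 0.296 times above Gins3 and made up 47.3% ± 1.93 of the GINS total, where an equal share is 25.0%. With mRNA lengths the ratio was 3.68 ± 0.275 and the order Gins4, Gins1, Gins2, Gins3 was unchanged. Gins1 and Gins2 were the only pair of subunits within any complex that did not keep 1 direction in all 4 libraries by exon length, with a log2 difference of 0.09 ± 0.13 (exact permutation of signs within libraries, two-sided, p = 0.25). The median GINS subunit was at 64.3 ± 1.75 TPM, and the MCM2-7 median was 9.18 ± 0.237 times as high.

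Polymerase alpha-primase lays the RNA-DNA primer. Its B subunit gene Pola2 was the steadiest of all 47 genes, at 222, 226, 224 and 225 TPM. The catalytic subunit gene Pola1 was at 72.3, 72.3, 71.4 and 67.3 TPM, and the primase genes Prim1 and Prim2 were at 109, 101, 92.2 and 97.0 and at 59.3, 56.1, 53.4 and 56.1. By exon length Pola2 stood 3.99 ± 0.182 times above the lowest subunit, Prim2, with no overlap between neighbours in the order. Prim1 and Prim2 have merged exons 2.44 and 3.01 times as long as their principal mRNAs, and per mRNA they were at 169 ± 11.6 and 117 ± 4.95 TPM beside Pola2 at 184 ± 1.22 and Pola1 at 80.8 ± 2.79. Prim1 then overlapped Pola2, and Pola1 took the lowest place, 2.28 ± 0.0881 times below Pola2.

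Polymerase delta is the lagging-strand enzyme and polymerase epsilon the leading-strand enzyme. The median of Pold1, Pold2 and Pold3 was 2.56 ± 0.176 times that of Pole and Pole2 (2.88 ± 0.176 by mRNA length). Over all 4 subunits of each enzyme, those outside the 47 genes included, the ratio of medians was 1.53 ± 0.127 (1.81 ± 0.0801 by mRNA length), a comparison added after the values were seen. Pold2, a noncatalytic subunit gene, was at 345, 370, 362 and 363 TPM, and the catalytic subunit gene Pold1 was at 217, 258, 258 and 243. Pold3, whose product binds PCNA, was at 106, 105, 101 and 99.0, so that Pold2 was 3.51 ± 0.177 times as high (2.70 ± 0.136 by mRNA length). The order Pold2, Pold1, Pold3 held in each library with both lengths. Pole, the catalytic subunit gene of polymerase epsilon, was at 80.1, 87.8, 91.7 and 87.5 TPM and Pole2 at 107, 102, 102 and 103. Pole2 was the higher by 1.20 ± 0.0978 times by exon length, and Pole by 1.32 ± 0.102 times by mRNA length, each in 4 of 4 libraries. Single subunits did not divide by enzyme: the remaining ones, from the list of further replication genes, were Pold4 at 58.4 ± 6.68 TPM, Pole3 at 124 ± 7.56 and Pole4 at 148 ± 11.9.

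Pcna (mm10 chromosome 2), the sliding clamp that holds polymerases on DNA, had the highest mean of all 47 genes, with 903, 846, 813 and 873 TPM. It was highest with mRNA lengths as well, at 940 ± 41.5. Fen1, the flap endonuclease, was at 345, 358, 336 and 347 TPM, and Pcna was 2.48 ± 0.112 times as high (3.84 ± 0.173 by mRNA length). The clamp loader genes were lower. Rfc4 was at 177, 177, 166 and 169 TPM and Rfc1, the large subunit gene, at 131, 137, 136 and 132. Rfc5 was at 113, 102, 109 and 101, Rfc2 at 94.3, 96.8, 92.7 and 92.1, and Rfc3 at 53.8, 60.1, 52.3 and 58.4. By exon length Rfc4 stood 3.07 ± 0.188 times above Rfc3 with no overlap between neighbours. By mRNA length Rfc3 reached 107 ± 6.85 TPM, Rfc2 became lowest at 82.1 ± 1.76, and the ratio of highest to lowest was 1.81 ± 0.0334.

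RPA, the heterotrimer that coats single-stranded DNA, was ordered by its subunit sizes when exon lengths were used. Rpa1, the large subunit gene, was at 266, 282, 277 and 273 TPM, Rpa2 at 187, 207, 196 and 202, and Rpa3 at 111, 95.8, 89.6 and 105. By mRNA length Rpa2 was above Rpa1 in each library, at 226 ± 9.45 and 209 ± 5.03, and Rpa3 remained lowest at 118 ± 10.9. The ratio of highest to lowest was 2.76 ± 0.313 by exon length and 1.94 ± 0.224 by mRNA length.

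Among the enzymes of deoxynucleotide supply, the ribonucleotide reductase subunits differed most. Rrm2, the small subunit gene tied to S phase, was at 712, 736, 734 and 720 TPM, while its paralog Rrm2b was at the levels given above. Rrm2 was 73.8 ± 7.99 times as abundant as Rrm2b, with 61.9 times in replicate 1 and 77.2 to 79.0 times in the others, and 66.1 ± 7.16 times by mRNA length. Rrm1, the large subunit gene, was at 227, 222, 221 and 214 TPM. Its merged exons are 11012 bases long against 3997 in the principal mRNA, and Rrm2 was 3.29 ± 0.106 times as high as Rrm1 by exon length but 1.51 ± 0.0484 times by mRNA length. Tyms, the thymidylate synthase gene, was at 104, 100, 100 and 97.2 TPM. Tk1, the gene of the cytosolic thymidine kinase of cycling cells, was at 107, 126, 122 and 120, lowest in replicate 1. Tk1 was 1.18 ± 0.105 times as high as Tyms by exon length and 2.22 ± 0.197 times by mRNA length.

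Across the 10 complexes and the loading factors, 66 pairs were compared within libraries on the scale of log2(TPM + 1). By exon length 65 of them had 1 direction in 4 of 4 libraries, which gives the smallest value that 4 libraries allow in the exact permutation test of signs, two-sided p = 0.13 both before and after Benjamini-Hochberg adjustment over the 66. A difference above 2-fold was found in 29 pairs by exon length and in 17 by mRNA length. The length of the principal mRNA turned the direction of 11 pairs, 8 of them in all 4 libraries. Of the 28 neighbours in the order of levels within complexes, 26 had ranges over the 4 libraries that did not overlap by exon length, and 20 by mRNA length. The choice of length thus moved subunit orders by more than the spread between libraries did.

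That spread was small. The coefficient of variation over the 4 libraries had a median of 4.17% for the 47 genes and ran from 0.723% (Pola2) to 10.9% (Rrm2b), while counting error alone would give a median of 1.02%. Over 12712 genes tested the median was 7.53%, and over the 8256 tested genes within the members' range of mean TPM it was 5.80%. After Rrm2b the widest were Rpa3 at 9.37%, Gins4 at 8.76% and Orc4 at 8.46%. None of the 47 passed edgeR's test for variation between replicates beyond the trend of genes of their level, where 0.362% of all tested genes did. In that edgeR test the smallest p of a member was 0.110 (Gins4) before and 1.00 after Benjamini-Hochberg adjustment, and 0 of 47 had an unadjusted p under 0.05, as 5.54% of tested genes did. The median residual deviance of the members was 0.897, against 1.98 over all tested genes and 1.80 over those in the members' range of TPM. A single library lay apart from the other 3, by a gap criterion, for 2 of the 47 (Mcm3 in replicate 1 and Cdc45 in replicate 4), against 5.52% of tested genes.

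**Figure D4:**
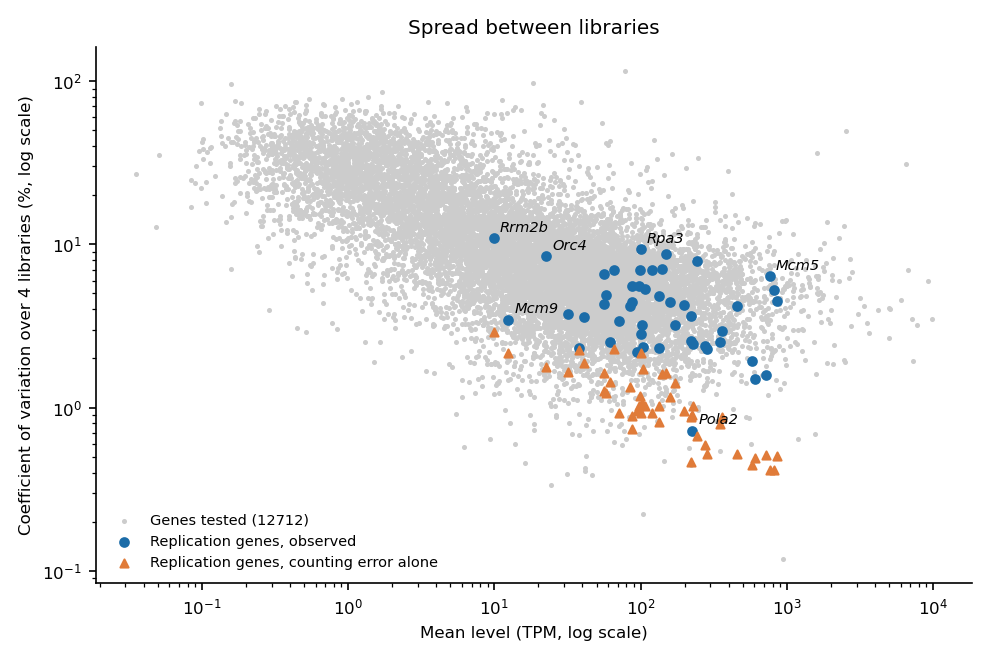
Coefficient of variation over the 4 libraries (%) against mean level (TPM), both on logarithmic axes, for 12712 tested genes (grey) and the 47 replication genes (blue), with the value that counting error alone would give for the latter (orange triangles). The replication genes have a median of 4.17%, and apart from Pola2 each lies above its counting error.

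The small differences that remained went in part with base composition. Across replicates 1 to 4, the number of the 47 genes with their highest level in that library was 21, 16, 5 and 5, while of all tested genes 30.1%, 24.3% and 25.6% had it in replicates 1 to 3 and the remainder in replicate 4. The number with their lowest level there was 16, 1, 16 and 14, against 34.0%, 15.4%, 22.9% and 27.7% of tested genes. Among the 23 genes of lower GC content 18 were above the mean of the libraries in replicate 1, with a median log2 deviation of 0.06 and Rrm2b, Orc4 and Rpa3 among them. Among the 24 of higher GC content 9 were, with a median of -0.04, and Pold1, Tk1 and Mcm5 had their lowest value there. The Spearman correlation of a member's deviation with its GC content, given as a description over 47 genes that share the 4 libraries, was -0.675 in replicate 1 and 0.326, 0.455 and 0.489 in replicates 2 to 4. After the trend over all genes was removed it was -0.164, 0.0811, 0.07 and 0.0983. The lower-GC genes above the mean in replicate 1 then numbered 15 and the higher-GC genes 14. Not every wide member followed this trend: the log2 deviation of Gins4 in replicate 3 was -0.20 both before and after its removal, and that of Gmnn in replicate 1 was 0.15 both times. What gave replicate 1 its base composition was not tested.

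**Figure D5:**
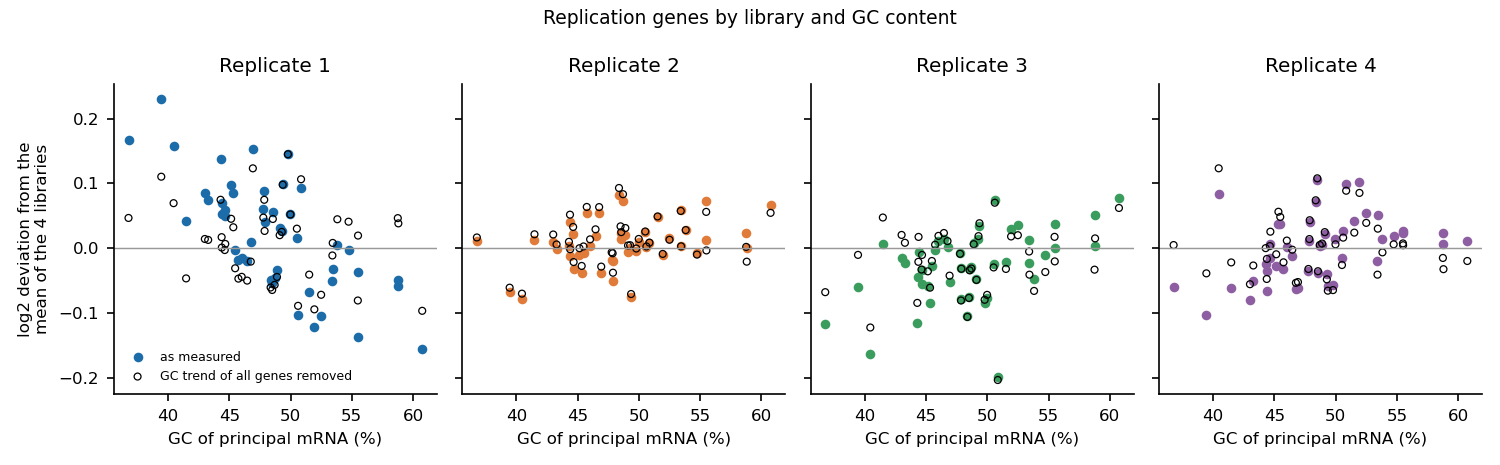
Deviation of each replication gene from the mean of the 4 libraries (log2) against the GC content of its principal mRNA (%), in 1 panel per library; filled points are values as measured and open circles those after the GC trend of all tested genes was removed. The filled points slope down in replicate 1 and up in replicates 2 to 4, and the open circles lie nearly level. As deviations are from the mean of the 4 libraries, the slopes of the panels are not independent.

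Some of these genes lie next to a gene that starts nearby on the opposite strand. In the annotation, 14 of the 47 (29.8%) had a gene on the opposite strand that starts within 1000 bases, compared with 17.7% of 11112 tested coding genes. Of the 15 neighbours 13 were at a lower level than the replication gene, Gm45062 at 0 TPM among them. The same share was not computed for other tested genes. The 47 genes had a median of 120 TPM, against 28.7 over the genes that reached 1 TPM in every library, so the count may reflect their level alone. Mcm4 was at 604 ± 9.04 TPM while Prkdc, whose start lies 466 bases away and which encodes the catalytic subunit of DNA-dependent protein kinase, was at 18.1 ± 0.742. Rpa1 stood at 274 ± 6.58 TPM beside Smyd4 at 13.7 ± 0.885, with starts 109 bases apart, and Pole at 86.8 ± 4.84 beside Pxmp2 at 12.3 ± 2.60, 120 bases apart. The exceptions were Mcm8 and Orc3: Trmt6, 86 bases from Mcm8, was at 76.8 ± 1.88 TPM against 41.0 ± 1.48, and Rars2, 13 bases from Orc3, was at 61.3 ± 1.76 against 57.7 ± 2.83. By mRNA length Orc3 was above Rars2, at 106 ± 5.20 against 62.9 ± 1.74, and Prpf38a was above Orc1, at 145 ± 1.60 against 67.9 ± 2.84. The other neighbours were Ufd1 for Cdc45, Tmem258 for Fen1, Abhd12 for Gins1, Ap4m1 for Mcm7, Mbd5 for Orc4, Vps35 for Orc6, Umad1 and Gm45062 for Rpa3, and Afmid for Tk1. For 6 of the genes (Cdc45, Fen1, Mcm7, Orc4, Orc6 and Tk1) the neighbour's start lies within the body of the replication gene, and fragments were counted by strand.

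Further genes of the pathway that are not among the 47 were taken from a list of 49 that covers fork protection, ligation, chromatin assembly and nucleotide supply. Of these, 47 reached 10 TPM in every library, the median was 75.0 TPM, and 0 of the 47 that could be tested passed edgeR's threshold. The highest were Uhrf1 at 563 ± 44.3 TPM and Dnmt1 at 480 ± 35.1, which maintain DNA methylation behind the fork, Dut, the dUTPase gene, at 471 ± 25.8, and Chtf8, a subunit gene of the alternative clamp loader, at 385 ± 22.5. At the other end were Tk2, the mitochondrial thymidine kinase gene, at 18.8 ± 1.78 TPM and Dscc1, another subunit gene of the alternative clamp loader, at 14.9 ± 1.64. The geminin relatives Mcidas and Gmnc, which act in multiciliated cells, were nearly or wholly without fragments, with 1 fragment for Mcidas over all libraries and 0 for Gmnc. Geminin itself, in contrast, was at 140 ± 9.84 TPM.

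Counting could affect a few of these values. Mcm7, Orc5 and Rpa1 share exon bases with another gene on the same strand, at most 172 bases and 3.89% of the exon length. Processed copies of Pcna and Tyms lie elsewhere in the genome. Pcna-ps2 held 1795 fragments over the 4 libraries, 0.701% of those of Pcna, Pcna-ps1 held 4 and Tyms-ps held 23. Fragments aligned in several places were not counted, so these counts cannot show how many Pcna and Tyms lost to the copies. That loss was not tested.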

How the data were processed

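The values used are counts deposited by the authors, 1 table per library. Per the file headers, they come from featureCounts 1.4.6-p4, run with GENCODE vM13 and strand setting 2 on read pairs of which both ends were aligned; fragments in several places or genes were not counted. The build is mm10 per the labels, and aligner settings are not given in the sources used here. The labels title the assay total RNA-seq but link a protocol for libraries of poly(A)+ RNA. Text files that list the other files were not used.

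TPM was calculated from counts and merged exon lengths, another column of the deposited tables. Symbols came from GENCODE vM21 by gene identifier (50376 of 50600 matched), as did the principal mRNA (best APPRIS rank, then longest coding sequence, then longest transcript). Variation between replicates was tested on the deposited counts with edgeR 4.0.16 in R 4.3.3 (limma 3.58.1), where filterByExpr with a minimum count of 10 left 12712 genes, with TMM factors of 0.998 to 1.002, trended dispersion, and the residual deviance of an intercept-only model set against chi-square with 3 degrees of freedom, Benjamini-Hochberg adjusted at 0.05. The test was also run on counts simulated from its own fitted means and dispersion, which cannot show how it behaves where that model fails. Subunit pairs were compared on log2(TPM + 1) by exact permutation of the signs within libraries, two-sided. The GC trend was removed in 20 bins. All libraries form 1 group, and no comparison between groups was possible. Alternatives are given in the closing section, those with DESeq2 1.42.0 size factors among them. Python 3.11.15 with pandas 2.3.3, numpy 2.4.6, matplotlib 3.10.9 and scipy 1.17.1 was used.

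The members and the lists of further genes and markers were chosen with earlier results of these data known. A further B-cell marker of the list is not reported here. All members are accounted for, and of the further genes the 4 highest and 4 lowest by mean TPM are named, with the remaining polymerase subunits. Orders of subunits, opposite-strand neighbours that start within 1000 bases and promoter words follow the same rule for every member. Examples of opposite-strand neighbours given with values were chosen after their values were seen. With 47558517 or more fragments per library, counting error was small for these genes (at most 2.89% for any of the 47), which leaves out PCR copying.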

Additional observations from a re-analysis of the deposited data

Results flagged for a closer look

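Of 60 sets of 4 library values examined for a library that stands apart (the 47 genes, the complex ratios and the library totals), 5 had an extreme value whose gap to the nearest other library was wide relative to the range. Chance gives about 1 in 20 such sets, and 5.52% of all tested genes met the same criterion, against 2 of the 47 replication genes. Mcm3 was at 748 TPM in replicate 1 and between 829 and 834 in the others. Cdc45 was at 219 TPM in replicate 4 and at 230 in the others. The ratio of the highest to the lowest GINS subunit was 3.51 in replicate 3, where Gins4 was at its lowest. The ratio of Rrm2 to Rrm2b was 61.9 in replicate 1, where Rrm2b was at its highest. The total of gene-assigned fragments was 273136467 in replicate 2, far above the other 3.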

How the results depend on the processing

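No member passed the edgeR test under any of the 10 alternatives run (DESeq2 size factors, both filters, common dispersion, replicate 2 thinned, GC trend removed and each library left out), while the number of genes called in all ran from 25 without replicate 2 to 862 with a common dispersion. With TMM-scaled FPKM, 43 members reached 10 FPKM in every library, which is a stricter cutoff than 10 TPM because values on that scale are lower. The median TPM of the members became 35.2 on that FPKM scale and 127 TPM with the principal mRNA length, which, like removal of the GC trend and the longest transcript for pairs and levels, was added after seeing the data.

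Gene length moved the ratios of highest to lowest subunit. With the effective length (200 bases less) they were 7.43 for ORC, 4.30 for GINS, 3.34 for RFC, 2.36 for RPA, 3.76 for polymerase delta and 1.33 for polymerase epsilon. With the longest annotated transcript they were 1.59 for MCM2-7, 1.93 for MCM8-9, 6.44 for ORC, 2.78 for RFC, 1.97 for RPA, 1.93 for polymerase alpha-primase, 2.70 for polymerase delta and 1.32 for polymerase epsilon. With the principal mRNA they were 1.72, 2.05, 7.33, 1.81, 1.94, 2.28, 2.70 and 1.32 for the same complexes.

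Directions of log2 differences turned in 9 pairs with the longest transcript: Mcm3 minus Mcm5 was -0.024, Mcm4 minus Mcm6 -0.029, Mcm4 minus Mcm7 -0.16, Mcm6 minus Mcm7 -0.13, Orc1 minus Orc3 -0.21, Rpa1 minus Rpa2 -0.11, Pola1 minus Prim2 -0.22, Prim1 minus Prim2 -0.15 and Pole minus Pole2 0.39. With the principal mRNA 11 turned: Mcm4 minus Mcm6 was -0.61, Mcm4 minus Mcm7 -0.16, Mcm5 minus Mcm6 -0.034, Orc1 minus Orc3 -0.63, Orc2 minus Orc3 -0.083, Rfc1 minus Rfc5 -0.064, Rfc2 minus Rfc3 -0.37, Rpa1 minus Rpa2 -0.11, Pola1 minus Prim2 -0.53, Pole minus Pole2 0.39 and Cdc6 minus Gmnn 0.14. These follow from the divisor alone, since the fragments are the same. Lengths of coding sequence were not used here, so the alternative that needs them was not run. No paired analysis was possible because all libraries belong to 1 group.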
